A study of Homo sapiens with 6 samples.

Results

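Genomic imprinting was examined here through 31 imprinted genes, measured in HT-29 cells with and without the demethylating agent 5-Aza. The genes were given as a list of symbols, which was matched to the annotation of the HGU133 Plus 2.0 microarray, and 28 of the 31, out of 19752 genes on the array, had a probe set of their own. HT-29 is an established line of human colorectal adenocarcinoma cells. In the treated group, the cells received 10 µM 5-Aza (5-aza-2′-deoxycytidine) for 72 hours in medium without fetal calf serum. The control group received the solvent of 5-Aza, a mixture of water and acetic acid. RNA of each group was hybridized to 3 arrays. Neither the labels nor the methods state that these came from separate cultures. The p-values below therefore reflect the array-to-array spread alone.

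An imprinted gene is expressed mainly or only from the copy inherited from 1 parent. The choice is kept by DNA methylation of control regions, which is laid down in the germ line and copied after each cell division by DNA methyltransferases. 5-Aza takes the place of deoxycytidine when DNA is copied and traps these enzymes, so methylation is lost as the cells divide. Most imprinted genes lie in clusters, in which protein-coding genes share a control region with long noncoding RNAs, and many of them act on growth, the placenta and the brain. In tumors, imprints are often lost or extended to both copies. The array measures RNA from both copies together, so the values below do not show which copy was read. Fewer cells expressing a gene and less RNA per cell cannot be told apart either.

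Signals are in the arbitrary linear units of the array, and fold changes are differences of log2(signal + 1), treated minus control, which understates changes of dim genes. Each gene was represented by its main probe set, the one with the highest mean signal among those that carry its symbol alone. Probe sets with the suffix _x_at were taken only where a gene had no other. Signals were not compared between genes, since each probe set binds with its own strength. As a measure of background, the highest signal of TrpnX, a bacterial transcript that human cells lack, was between 22.6 and 42.0 on the 6 arrays. By this measure, 17 of the 28 genes lay above the background of the same array on all 6 arrays. On all arrays of at least 1 group, 22 did. The 6 others were PEG3, SNRPN, DLK1, NDN, MAGEL2 and DLX5, and their values are given with this limit. The median signal of all probe sets was 84.3 ± 1.37 (SD, n = 3) on the treated arrays and 74.0 ± 2.61 on the control arrays (p = 0.1 in a two-sided exact permutation test, which cannot give less with 6 arrays). The hybridization controls averaged 5826 on control array 3 and between 9872 and 12355 on the other arrays. Colon epithelium markers were present, with 9 of 11 above background on all 6 arrays. CDX2 was above background on all 3 control arrays but only 2 treated arrays, and CDX1 on none.

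Among the 28 genes, none passed an adjusted p under 0.05 in limma, and over all 19752 genes 0% did. With the variance trend and robust estimation, 9 genes of the array (0.0456%) passed and no imprinted gene was among them. Without adjustment, p was under 0.05 for 4 imprinted genes (14.3%) with higher and for 0 with lower signals after 5-Aza, against 5.32% and 1.88% of all genes. These 4 were PEG10, SGCE, PLAGL1 and DLK1. All 3 treated arrays lay above all 3 control arrays for 5 imprinted genes, namely PEG10, SGCE, NNAT, PLAGL1 and PHLDA2, which is 17.9% against 9.92% of all genes. They lay below for 1 gene, UBE3A, which is 3.57% against 6.94% of all genes. The fold change was above 0 for 21 of the 28 genes (75%) and for 54.9% of all genes, and its median was 0.25 and 0.038. When each array was centred on its own median signal, 15 of the 28 were above 0 and their median was 0.059, so the direction of the small differences depended on the scaling. This centring moved the median over all probe sets from 0.062 to -0.12. Of the 22 genes above background on all arrays of at least 1 group, 17 had a fold change above 0, with a median of 0.17, and the same selection of all genes had a median of 0.020.

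**Figure D1:**
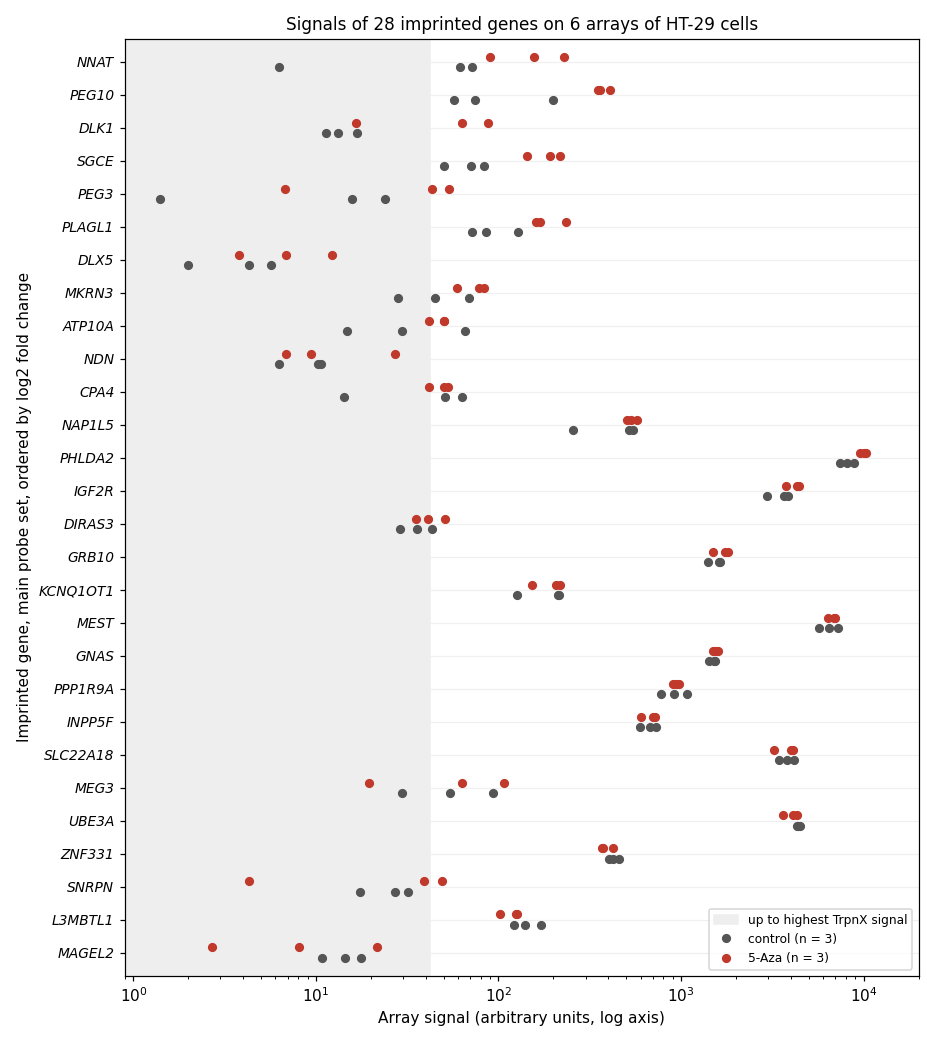
Signal of the main probe set of each of 28 imprinted genes on 3 treated and 3 control arrays, on a log axis in arbitrary units, with each point 1 array and the shaded area reaching up to the highest TrpnX signal, 42.0. The treated arrays lie apart from and above the control arrays for PEG10, SGCE, NNAT and PLAGL1, whereas MEST, SLC22A18 and INPP5F overlap.

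The neighbours PEG10 and SGCE, on chromosome 7, were both higher after 5-Aza without overlap between the groups. PEG10 derives from a retrotransposon and is needed for the placenta, and SGCE encodes epsilon-sarcoglycan, a membrane protein whose loss causes a movement disorder. In the RefSeq annotation (GRCh38.p14) the 2 genes start next to each other and are read in opposite directions, and both are expressed from the paternal copy. PEG10 had signals of 349.7, 408.6 and 360.4 on the treated arrays and 74.1, 57.4 and 198.0 on the control arrays. Its mean was 373 ± 31.4 (SD, n = 3) after 5-Aza and 109.8 ± 76.8 in the control, which is a log2 fold change of 1.96 (SE 0.49, limma adjusted p = 0.516). Control array 3 was the highest of the controls, and without it the fold change was 2.49. The second PEG10 probe set gave 196.1, 171.4 and 210.2 against 99.3, 28.7 and 60.6, again with no overlap, and a fold change of 1.76 (SE 0.46). SGCE had signals of 192.7, 218.3 and 143.3 against 83.6, 71.0 and 50.2. Every treated array was thus well above every control array, with means of 185 ± 38.1 and 68.3 ± 16.9 and a log2 fold change of 1.43 (SE 0.27, limma adjusted p = 0.368). Leaving out any 1 array kept SGCE between 1.23 and 1.60. After median centring, the fold changes were 1.78 for PEG10 and 1.25 for SGCE.

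For the other genes of this region the groups overlapped. PPP1R9A, which encodes the actin-binding protein neurabin and is reported as maternally expressed, had 980.1, 902.5 and 939.3 after 5-Aza and 913.7, 772.7 and 1072.5 in the control. Its treated values lay within the control range (0.04, SE 0.18). DLX5, a homeobox gene whose imprinting is disputed, stayed within background on all 6 arrays, from 2.0 to 12.2.

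On chromosome 20, NNAT had the highest fold change of the 28 genes, with wide error. NNAT encodes neuronatin, a small membrane proteolipid of neurons and endocrine cells, and lies within the gene BLCAP in the RefSeq annotation. The paternally expressed NNAT had signals of 89.8, 229.4 and 156.7 after 5-Aza and 61.3, 71.8 and 6.3 in the control. The groups did not overlap, although the lowest treated array was close to the controls (log2 fold change 2.21, SE 0.99, limma adjusted p = 0.726). Control array 3 set much of this size, since the fold change was 1.14 without it. The fold change was 1.36 when all signals under 42.0, the highest TrpnX signal of the 6 arrays, were raised to that value. This value is called the TrpnX level below. BLCAP, the host gene, differed the other way. Its signals of 2940.0, 2867.6 and 2822.2 were below the 3539.8, 4147.5 and 3275.2 of the control (-0.34, SE 0.16, adjusted p = 0.730).

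PLAGL1, on chromosome 6, encodes a zinc finger transcription factor that restrains cell growth. It is paternally expressed from a promoter whose maternal copy is methylated, and gain of its expression causes transient neonatal diabetes. This promoter is shown as an example of an imprinted promoter dense in CG dinucleotides, the sites that DNA methyltransferases act on. The 250 bases before the start, from RefSeq (GRCh38.p14, chr6:144008260-144008509, minus strand, 5′ to 3′), hold 32 CG, printed in capitals. A promoter window of MEST (chr7:130491808-130492057, plus strand), a gene whose signal hardly differed, is shown beside it and holds 16 CG.
PLAGL1: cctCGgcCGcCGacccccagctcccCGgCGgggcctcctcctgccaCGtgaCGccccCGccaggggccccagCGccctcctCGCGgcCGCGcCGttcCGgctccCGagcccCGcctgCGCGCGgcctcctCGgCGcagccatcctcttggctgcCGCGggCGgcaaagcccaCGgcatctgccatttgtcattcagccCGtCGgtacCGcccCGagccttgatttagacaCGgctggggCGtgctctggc
MEST: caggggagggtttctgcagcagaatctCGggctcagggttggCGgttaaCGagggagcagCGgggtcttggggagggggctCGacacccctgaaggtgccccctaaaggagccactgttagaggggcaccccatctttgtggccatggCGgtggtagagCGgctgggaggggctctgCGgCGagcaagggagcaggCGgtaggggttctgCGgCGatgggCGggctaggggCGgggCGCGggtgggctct
With the first 50 transcribed bases included, these windows held 39 CG for PLAGL1 and 22 CG for MEST. As many or more were found in 8.71% and 37.7% of 35116 windows of the same length before RefSeq genes, where the median was 14. Such windows were found for 21 of the 31 genes, 53 windows in all, and the median of each gene's richest window was 28. Since many genes have several windows, this is not comparable with the median of 14 over all single windows. PLAGL1 has 5 windows, with 31, 3, 39, 3 and 2 CG, and MEST has 5, with 13, 22, 16, 22 and 25, so the window printed for MEST is not its richest. The array does not tell which start was used. Some genes with small differences had richer windows than PLAGL1, with up to 49 CG for GRB10, 44 for UBE3A, 43 for GNAS and 41 for IGF2R. The genes with no window here were PEG10, SGCE, NNAT, IGF2, KCNQ1OT1, PEG3, DLK1, PHLDA2, ZIM2 and DLX5. The CG content is a property of the reference sequence, and methylation was not measured on these arrays.

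The main probe set of PLAGL1 gave 169.6, 161.0 and 233.0 after 5-Aza and 85.7, 71.8 and 128.1 in the control. All treated arrays were above the control arrays, with means of 188 ± 39.3 and 95.2 ± 29.3 (SD, n = 3) and a log2 fold change of 1.00 (SE 0.29, limma adjusted p = 0.579). Leaving out any 1 array kept this value between 0.82 and 1.23. The pair of PLAGL1 probe sets with the suffix _x_at, which can also bind related transcripts, overlapped between the groups, at 0.43 (SE 0.35) and 0.23 (SE 0.20). The second of this pair was brighter than the main probe set, with means of 357 after 5-Aza and 303 in the control. HYMAI, a noncoding RNA that starts in the same window, was near background, with 29.9, 35.0 and 13.6 against 5.7, 7.7 and 40.9. MEST, a paternally expressed gene of the hydrolase fold family, had 6988.9, 6931.0 and 6395.6 against 5716.0, 7225.1 and 6466.9. These signals overlapped (0.07, SE 0.16, adjusted p = 0.940). The next gene, COPG2, a coat protein subunit of Golgi transport, had signals of 319.8, 355.3 and 308.1 after 5-Aza, all below its control signals of 469.4, 394.3 and 554.1 (-0.52, SE 0.18, adjusted p = 0.655). CPA4, a carboxypeptidase gene of the same region, had 53.2, 50.4 and 41.7 against 50.9, 14.3 and 63.2, with the treated arrays inside the control range.

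The cluster on chromosome 11 holds the growth factor IGF2, the noncoding RNA H19 and, in a domain of its own, KCNQ1OT1, a noncoding RNA that silences its neighbours on the paternal copy. For H19 and IGF2, every probe set carries a further symbol, MIR675 (a microRNA inside H19) or INS-IGF2 (a read-through transcript), so neither entered the counts of 28. The brighter of the IGF2 probe sets gave 1961.7, 2053.3 and 2328.9 after 5-Aza and 1502.9, 1391.8 and 2062.5 in the control, with overlap (0.37, SE 0.21). The second gave 275.3, 273.7 and 295.3 against 143.2, 129.7 and 141.5. Here the groups were far apart and the replicates close together, with a log2 fold change of 1.02 (SE 0.14, limma adjusted p = 0.245). This probe set has the suffix _x_at. The third gave 206.8, 182.8 and 318.3 against 115.1, 150.9 and 175.0, without overlap (0.66, SE 0.29, adjusted p = 0.721). All 3 IGF2 probe sets had fold changes above 0, of different size. The paired H19 probe sets, both with the suffix _x_at, differed from each other. One gave 169.0, 102.4 and 167.4 against 31.7, 37.0 and 116.1, where the third control array overlapped the treated ones (1.45, SE 0.56, limma adjusted p = 0.678), and the other had a fold change of 0.07.

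KCNQ1OT1 also gave different answers by probe set. Its main probe set had 207.5, 153.2 and 216.5 after 5-Aza and 126.8, 214.3 and 212.5 in the control, which overlapped (0.08, SE 0.28). Another gave 64.6, 60.3 and 53.4 against 22.2, 23.9 and 28.3, without overlap (1.23, SE 0.17, limma adjusted p = 0.251). In the control this probe set was at background on all 3 arrays, and with signals raised to the TrpnX level its fold change was 0.49. PHLDA2, a maternally expressed gene of the same domain that limits growth of the placenta, had 10294.3, 9520.0 and 10116.5 against 8139.4, 8905.7 and 7416.4. The groups did not overlap, but the difference was small, with means of 9977 ± 406 and 8154 ± 745 (log2 fold change 0.29, SE 0.15, adjusted p = 0.753), and 0.11 after median centring. SLC22A18, a maternally expressed transporter gene, had 4010.0, 3242.3 and 4110.1 against 3426.4, 4159.0 and 3791.3, with a fold change of -0.01 (SE 0.17). The neighbours CDKN1C, a cell cycle inhibitor, and KCNQ1, a potassium channel, overlapped between the groups too, at -0.01 (SE 0.31) and 0.17 (SE 0.25).

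**Figure D2:**
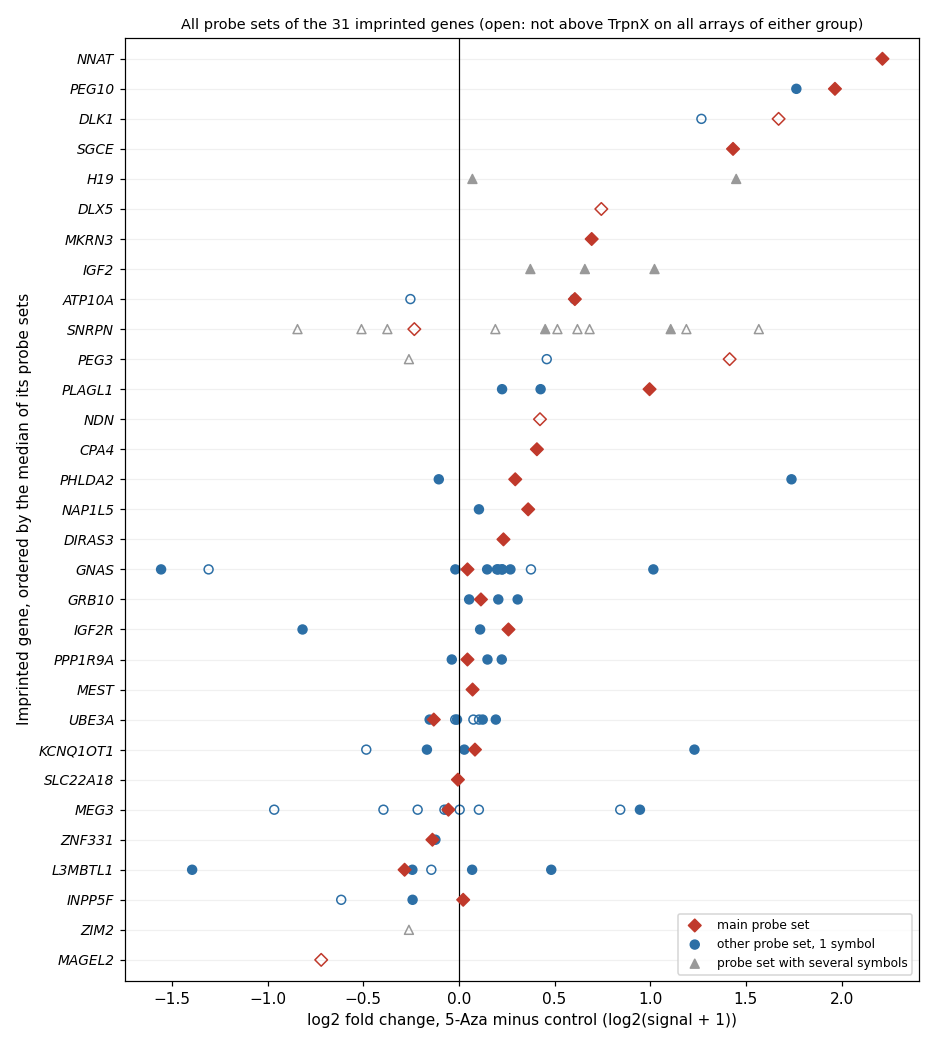
Log2 fold change of every probe set of the 31 imprinted genes, treated minus control, with diamonds for main probe sets, circles for other probe sets of 1 symbol and triangles for probe sets with several symbols. Both PEG10 probe sets lie close together, at 1.96 and 1.76, while those of GNAS reach from -1.56 to 1.02.

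DLK1 and MEG3 are neighbours on chromosome 14, expressed from opposite parental copies. DLK1 encodes a transmembrane protein of the Notch ligand family that keeps precursor cells undifferentiated. Its signals were 87.8, 62.8 and 16.6 after 5-Aza and 11.3, 13.2 and 16.7 in the control. On treated arrays 1 and 2 it was above background, whereas treated array 3 stayed at the level of the controls, which were at background on all 3 arrays. The log2 fold change of 1.67 (SE 0.64, limma adjusted p = 0.678) dropped to 0.54 with signals raised to the TrpnX level. Leaving out 1 array moved it between 1.20 and 2.37, and its unadjusted p stayed under 0.05 only when treated array 3 was the one left out. MEG3, a maternally expressed noncoding RNA, had 19.6, 63.4 and 106.9 against 29.7, 54.6 and 93.0. Its arrays differed more within the groups than between them (-0.05, SE 0.74), and its 10 probe sets spread from -0.97 to 0.95.

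The Prader-Willi and Angelman region on chromosome 15 held MKRN3, MAGEL2, NDN and SNRPN, which are paternally expressed, as well as UBE3A and ATP10A, which are reported as maternally expressed in some tissues. MKRN3, a ubiquitin ligase gene involved in the timing of puberty, had 77.8, 83.4 and 59.2 after 5-Aza and 28.3, 45.0 and 69.2 in the control. The highest control array lay between the treated arrays (0.69, SE 0.36, adjusted p = 0.761). NDN and MAGEL2, which encode proteins of the MAGE family, stayed at background on all 6 arrays. SNRPN, which encodes a splicing protein, gave 49.0, 39.0 and 4.3 against 17.5, 27.1 and 32.1 with its own probe set, which was not above background on all arrays of either group. Brighter SNRPN probe sets carry further symbols, and the pair above background on all arrays of at least 1 group had fold changes of 0.45 and 1.11, with overlap. A further one gave 23.8, 20.8 and 16.1 against 3.1, 16 and 4.1, without overlap (1.57, SE 0.58, limma adjusted p = 0.669), but was at background on all 6 arrays. UBE3A, a ubiquitin ligase gene lost in Angelman syndrome, had 4294.4, 3621.1 and 4126.3 against 4317.5, 4362.8 and 4476.5. This was the single main probe set with all treated arrays below the controls, by a small amount (-0.13, SE 0.14, adjusted p = 0.874). Another UBE3A probe set was higher instead, with 2040.4, 2125.0 and 1844.8 against 1775.3, 1688.5 and 1786.8 (0.19, adjusted p = 0.820), so the probe sets of UBE3A did not share a direction. ATP10A, a phospholipid flippase gene, had 50.6, 41.9 and 50.5 against 14.8, 29.6 and 65.9, which overlapped.

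NPAP1, a nuclear pore-associated gene of this region that was not among the 31, had 124.2, 106.0 and 92.7 after 5-Aza and 66.7, 25.6 and 9.7 in the control. The groups did not overlap, with means of 108 ± 15.8 and 34 ± 29.4 (log2 fold change 2.01, SE 0.68, adjusted p = 0.638). With signals raised to the TrpnX level it was 1.11.

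GNAS, on chromosome 20, encodes the stimulatory G protein alpha subunit and has several first exons whose transcripts are imprinted in different ways. It had 12 probe sets. The brightest have the suffix _x_at and overlapped between the groups, with fold changes from -0.02 (SE 0.14) to 0.27 (SE 0.17). The main one gave 1536.6, 1595.2 and 1493.7 after 5-Aza and 1423.3, 1539.8 and 1522.3 in the control, with overlap (0.04, SE 0.13). Another, dimmer _x_at probe set gave 8671.0, 8558.3 and 9264.1 against 4991.9, 4132.4 and 4028.3. Its groups were far apart, at a log2 fold change of 1.02 (SE 0.16, limma adjusted p = 0.280). A dim probe set pointed the other way, with 18.2, 12.6 and 13.3 against 48.5, 42.8 and 42.8 (-1.56, SE 0.19, limma adjusted p = 0.217). Its treated signals were at background on all 3 arrays. With signals raised to the TrpnX level of 42.0, just under its control signals, the fold change was -0.09. Which GNAS transcripts these probe sets bind was not determined here.

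Of the growth receptors and adaptors, IGF2R, the receptor that carries IGF2 to lysosomes and is maternally expressed in some people, had 4334.3, 3764.7 and 4429.7 after 5-Aza and 3689.0, 2960.4 and 3862.6 in the control. Treated array 2 lay between the controls (0.26, SE 0.18, adjusted p = 0.808). A dimmer IGF2R probe set was lower without overlap, at 46.5, 79.5 and 81.1 against 105.0, 106.4 and 149.8 (-0.82, SE 0.29, adjusted p = 0.659). GRB10, an adaptor that dampens insulin and IGF signaling, had 1819.0, 1498.4 and 1734.9 against 1615.5, 1637.4 and 1407.1 and overlapped (0.12, SE 0.16). Its neighbour DDC, the enzyme that forms dopamine and serotonin, was at 936 ± 199 against 1231 ± 95.9 (SD, n = 3) with no overlap (-0.41, SE 0.20, adjusted p = 0.746).

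PEG3 and ZIM2, zinc finger genes that share a promoter on chromosome 19, were dim. PEG3 had 53.7, 6.8 and 43.4 after 5-Aza and 15.8, 1.4 and 23.8 in the control, so treated array 2 fell among the controls (1.41, SE 1.19). Leaving out 1 array moved it between 0.39 and 2.30. The ZIM2 probe set, which carries the symbol of PEG3 too, had a fold change of -0.26 (SE 0.72). ZNF331, a zinc finger gene of the same chromosome, had 372.8, 424.6 and 371.3 against 459.0, 405.4 and 421.5, with overlap (-0.14, SE 0.15).

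Of the genes in smaller imprinted regions, L3MBTL1, a Polycomb-like chromatin gene on chromosome 20, had 102.0, 125.8 and 124.1 after 5-Aza and 121.5, 139.4 and 170.4 in the control (-0.28, SE 0.20). One of its other probe sets was higher without overlap, at 90.8, 99.2 and 80.6 against 73.6, 65.0 and 54.9 (0.48, SE 0.18, adjusted p = 0.672). Another was lower without overlap, at 10.8, 34.4 and 63.9 against 68.8, 70.2 and 98 (-1.39, SE 0.65, adjusted p = 0.735). NAP1L5, of the histone chaperone family, had 532.2, 504.5 and 575.1 against 519.7, 256.6 and 544.5. Its fold change of 0.36 (SE 0.33) came down to 0.01 without control array 2. DIRAS3, a small GTPase gene known as a growth suppressor, had 41.1, 50.7 and 35.3 against 35.6, 43.5 and 28.9, close to background (0.23, SE 0.23). INPP5F, a phosphoinositide phosphatase gene, had 716.4, 601.5 and 706.1 against 593.7, 672.7 and 727.3 and differed by 0.02 (SE 0.16).

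**Figure D3:**
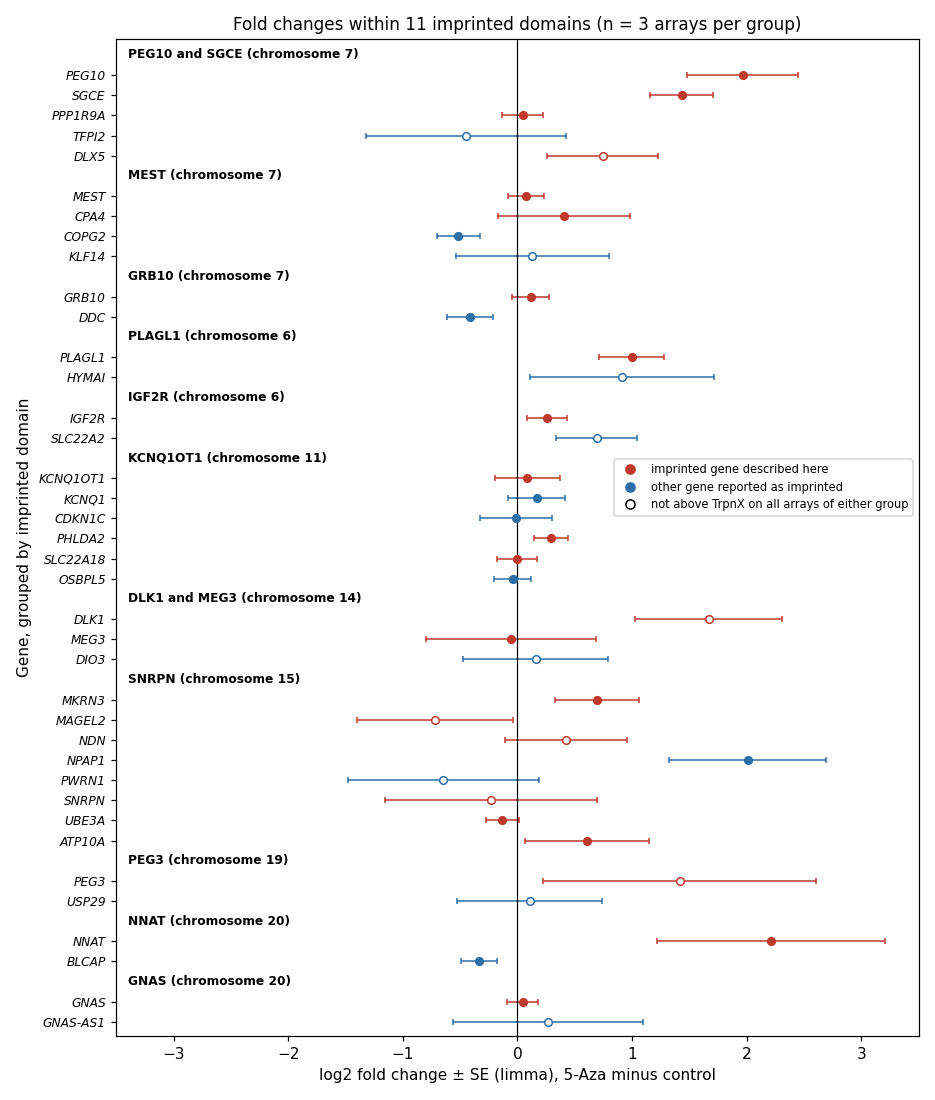
Log2 fold change ± SE from limma (n = 3 arrays per group) of imprinted genes ordered by domain. Genes described here are in red and other genes reported as imprinted in blue. Open points mark genes not above the TrpnX signal of the same array on all arrays of either group. PEG10 and SGCE stand to the right of 0 together (1.96 and 1.43), whereas NNAT and BLCAP lie on opposite sides (2.21 and -0.34).

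By parental copy, the 15 paternally expressed genes with a main probe set held all 4 that were higher at an unadjusted p under 0.05 (26.7%, against 5.32% of all genes), and 12 were above 0. Their median log2 fold change was 0.42, and 0.13 with signals raised to the TrpnX level. PEG3, SNRPN, DLK1, NDN and MAGEL2 among them were not above background on all arrays of either group. The 8 genes reported as maternally expressed held none, with a median of 0.15 and 5 above 0. With raised signals, the median of these 8 was 0.02, and 4 were above 0. H19, which is maternally expressed, and IGF2 and ZIM2, which are paternally expressed, were outside these counts, since their probe sets are shared. The brighter H19 probe set (1.45, with overlap) and the second IGF2 probe set (1.02) passed the same threshold with higher signals. The other probe sets of these genes did not. Both that passed have the suffix _x_at. The counts by class thus cover only genes with a main probe set, and PEG10 and SGCE among the 4 are neighbours. The remaining 5 of the 28, whose parental copy depends on tissue or transcript or is disputed, had a median of 0.045. They include GRB10 and ZNF331. The 8 in turn include IGF2R, UBE3A and ATP10A, reported as maternally expressed only in some people or tissues. The line between these 5 and the 8 is thus not sharp. After median centring, the medians were 0.24 for the paternally and -0.03 for the maternally expressed genes. The difference between these classes was not tested, since the genes of a cluster are not independent of each other.

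Over all 102 probe sets of the 31 genes, 11 passed an unadjusted p under 0.05 with higher and 3 with lower signals, against 5.26% and 1.97% of the 54614 probe sets tested. The groups did not overlap for 13 higher and 5 lower probe sets, against 9.29% and 5.22%. Several of these share a gene, so they are not separate observations.

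**Figure D4:**
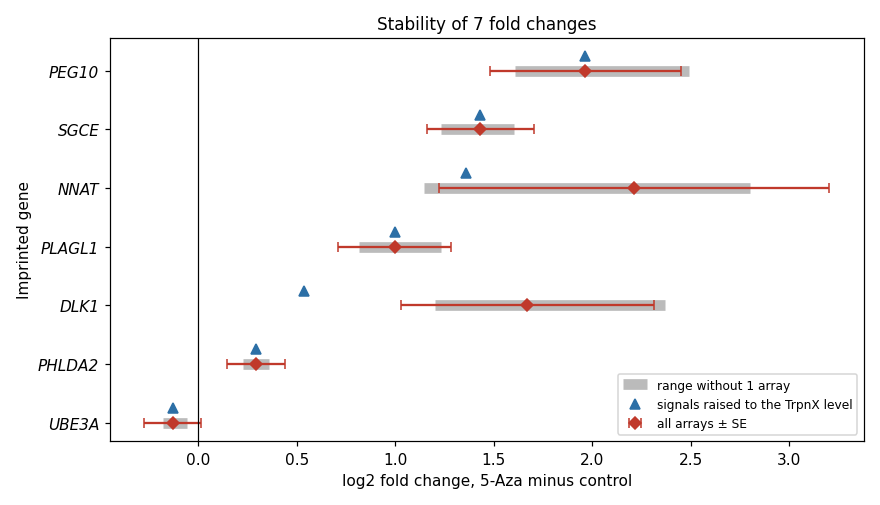
Log2 fold change of 7 imprinted genes, treated minus control, with all arrays (diamond, ± SE), the range when each array was left out in turn (grey) and the value with signals raised to the TrpnX level (triangle). PEG10 and SGCE keep their values with raised signals, whereas DLK1 moves from 1.67 to 0.54 and NNAT from 2.21 to 1.36.

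Of 46 other genes reported as imprinted in at least some human tissues, 35 had a main probe set, with a median log2 fold change of 0.16. Of these, 3 (8.57%) passed an unadjusted p under 0.05 with higher signals and 1 (2.86%) with lower signals, against 5.32% and 1.88% of all genes, and 0 passed the adjusted threshold in limma. The groups did not overlap for NLRP2 (1.69) and ZDBF2 (1.71), but neither was above background on all arrays of either group. With signals raised to the TrpnX level, these were 0.25 and 0. Of the genes above background on all arrays of at least 1 group, NPAP1 and RB1, the retinoblastoma tumor suppressor, were higher without overlap. COPG2, DDC and BLCAP were lower without overlap. In all, 4 of the 35 (11.4%) were higher and 3 (8.57%) lower without overlap, against 9.92% and 6.94% of all genes. RB1 had 2143.2, 2289.8 and 2455.5 after 5-Aza and 1834.1, 1659.5 and 1785.3 in the control (0.38, SE 0.14, adjusted p = 0.669). Of 12 genes that set or keep imprints, 11 were measured, and none passed an unadjusted p under 0.05. All 3 treated arrays were below the controls for 3 of the 11 (27.3%), against 6.94% of all genes. One was ZNF445, a zinc finger protein that binds imprinting control regions, at 225 ± 30.1 against 296 ± 42.4 (-0.39, SE 0.19, adjusted p = 0.743). The others were the histone methyltransferase SETDB1 (-0.30, SE 0.15, adjusted p = 0.743) and CTCF, the insulator protein of the IGF2 and H19 region (-0.17, SE 0.13, adjusted p = 0.835). The 7 receptors, RNA-binding proteins and adaptors of IGF2 signaling had a median of -0.071, and in none of them were the groups apart.

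Markers of other cell types were read beside these dim genes. Above background on all 6 arrays were 1 of 6 fibroblast, 1 of 4 leukocyte, 1 of 4 endothelial and 0 of 4 germ cell and placenta markers. The leukocyte list and the germ cell and placenta list each named 6 genes, of which 4 had a main probe set. The markers above background were COL1A1, LAPTM5 and PECAM1, and each made up most of the sum of its list. Summed by list, signals on the treated and control arrays ranged from 479.3 to 609.1 and from 365.0 to 536.2 for fibroblasts. For leukocytes they ranged from 441.2 to 598.4 and from 72.3 to 413.8. For endothelium the ranges were 245.9 to 308.9 and 163.0 to 223.2, and for germ cells and placenta 86.3 to 193.1 and 75.7 to 117.6. The part of these markers, and of the higher median signal of the treated arrays, in the values of the imprinted genes was not tested.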

How the data were processed

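Gene expression was measured on 6 HGU133 Plus 2.0 arrays, 3 of treated and 3 of control HT-29 cells, and all were used, grouped by their labels. The authors deposited linear intensity values, 1 for each of 54675 probe sets and array, and the submitters' notes name the affy package, whose version is not given in the sources used here. Without its lowest and highest 2%, each array had the same mean, so the values had been scaled before deposit. The labels give the RNeasy Mini kit for the RNA, and the methods the RNeasy Micro kit.

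Leaving out 61 control probe sets, the remaining 54614 entered a limma model (version 3.58.1, R 4.3.3) on log2(signal + 1) with the group as the only term. P-values were two-sided and adjusted by Benjamini-Hochberg over all probe sets. The methods name SAM, which was not used here. The script was tested on simulated data. In the annotation, 41097 probe sets have 1 symbol, 1801 several and 11777 none. A main probe set was the brightest with a single symbol, _x_at only where a gene had no other. All 31 genes are named, 28 with their main probe set, and other probe sets where their direction differed from it without overlap or where the description of the gene turned on them. H19, IGF2 and ZIM2, held only by shared probe sets, were left out of counts. Of the other imprinted genes, those above background on all arrays of a group without overlap are named. The genes and lists were chosen with earlier results of these data known. The number of arrays limits the precision. Neither the labels nor the methods state that array numbers pair treated and control arrays. Deviations of arrays with the same number correlated at -0.012, 0.0021 and 0.0097, and the main model used no pairing. Alternatives were trend and robust variance, quantile normalization, median centring, a filter at the median signal, 16 added in place of 1, a replicate block, no _x_at probe sets, control probe sets included, averaging the probe sets of each gene, and each array left out. Raising signals to the TrpnX level, 42.0 for every array, and counting probe sets with several symbols were chosen after seeing the data.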

Additional observations from a re-analysis of the deposited data

How the results depend on the processing

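No imprinted gene passed an adjusted p under 0.05 under any alternative. At an unadjusted p under 0.05, the number of imprinted genes that were higher was 4, and between 3 and 6 under the alternatives that kept all arrays. Leaving out 1 array gave 3 to 5 higher and 0 to 1 lower, and a median log2 fold change of 0.15 to 0.30. The lower gene was MAGEL2, at background, without 5-Aza array 1 (-1.37). MKRN3 (1.01) and ATP10A (1.14) were added without control array 3. The median of 0.25 became 0.059 with median centring, 0.078 with the filter at the median signal and 0.072 with signals raised to the TrpnX level. Of the other imprinted genes, the number lower was 3 with trend and robust variance, 3 with median centring, 3 with the filter, 0 with the mean of all probe sets and 2 with raised signals, and 0 to 1 without 1 array. The number higher was 1 with the filter and 1 to 2 without 1 array. With the replicate block, 0 of the other imprinted genes were lower and 4 imprinted genes were higher, PEG3 now among them in place of DLK1. Whether arrays with the same number belong together is not stated.

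Of 268 fold changes of single imprinted genes under alternatives with all arrays, 247 kept their direction, 18 reversed and 3 became 0 (NDN, MAGEL2 and DLX5, with raised signals), and of 168 without 1 array, 14 reversed. Quantile normalization gave -0.022 for KCNQ1OT1 and 0.021 for SLC22A18. Median centring gave -0.12 for MEST, -0.10 for KCNQ1OT1, -0.072 for GRB10, -0.14 for GNAS, -0.16 for INPP5F and -0.14 for PPP1R9A. Adding 16 gave 0.021 for SNRPN. The mean of all probe sets gave -0.15 for IGF2R, 0.013 for MEG3, -0.014 for GNAS, -0.28 for INPP5F and 0.023 for UBE3A. Raised signals gave 0.073 for SNRPN, 0.14 for MEG3, -0.038 for ATP10A and -0.086 for CPA4. Without 1 array, MEG3 ranged from -0.58 to 0.62, NDN from -0.12 to 0.79, INPP5F from -0.056 to 0.10, SLC22A18 from -0.076 to 0.10, SNRPN from -0.83 to 0.79, KCNQ1OT1 from -0.17 to 0.24, MEST from -0.015 to 0.15, PPP1R9A from -0.074 to 0.16 and CPA4 from -0.23 to 0.80. The cause of these changes was not tested.

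PEG10, SGCE and PLAGL1 had an unadjusted p under 0.05 in all 17 settings, the reported one included, DLK1 in 5, and NNAT and PHLDA2 in 3 each. All 6 were above 0 in each setting that kept them. Signals near background carry no order, which limits PEG3, SNRPN, DLK1, NDN, MAGEL2 and DLX5.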
